A study of Vitis vinifera with 6 samples.

Results

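The genes described here are 8 grapevine (Vitis vinifera) genes of sucrose cleavage and hexose transport. They are the vacuolar invertases GIN1 (VIT_16s0022g00670) and GIN2 (VIT_02s0154g00090), the cell wall invertase cwINV (VIT_09s0002g02320), the hexose transporters HT1 (VIT_00s0181g00010), HT2 (VIT_18s0001g05570), HT3 (VIT_11s0149g00050) and HT5 (VIT_05s0020g03140), and the tonoplast transporter HT6 (VIT_18s0122g00850). They were chosen by locus name, and each of the 8 had 1 probe among the 34369 of the array. The array files give the locus names alone. The gene names were assigned to the loci for this work, and 5 of the 8 names stood in a RefSeq gene table, each time on the chromosome given in the locus name. The names not found there were GIN1, GIN2 and HT1. That table lists HT3 under the symbol HT7 and HT2 under LOC100232961, and it held none (0) of the array's locus names.

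Total RNA came from fully expanded leaves of the cultivar Syrah, clone BVRC12, from plants that the labels describe as raised from anther callus and kept in a greenhouse. The labels put 3 arrays in a group that overexpresses CARPO, a member of the plant NAC family of transcription factors (called OX-labelled here, after the OX.CARPO of the titles), and 3 in a control group, each array a biological replicate. The series title ties CARPO to the onset of organ maturation and of ripening. The series text speaks of selected transgenic lines, without saying which line each array holds. The promoter of the transgene, the age of the plants and whether the control carried an empty construct are not given in the sources used here. The comparison asks which leaf transcripts differ when CARPO is overexpressed. Levels are given as log2 of the processed spot intensity relative to the 75th percentile of the same array, so that 0 is a spot at that percentile, and 1 unit is 2-fold. Different probes bind their targets differently, so levels are compared between arrays for 1 gene and never between genes.

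Sucrose is the sugar that leaves export through the phloem. Invertases split it irreversibly into glucose and fructose, in the vacuole or in the cell wall space, according to the enzyme. Hexoses released in the cell wall space are taken up by proton-coupled hexose transporters of the plasma membrane, and tonoplast transporters load hexoses into the vacuole. In grape berries these genes are studied for their part in sugar storage. In leaves, high cell wall invertase activity together with hexose uptake is known from sink tissue and from infected tissue.

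The arrays carry 2 features that touch every result below. First, the CARPO probe (VIT_08s0007g07670, a locus known from outside the labels, not well above background on control replicate 1) had intensities of 10.1, 15.1 and 271 on OX-labelled replicates 1, 2 and 3, against 12.4, 50.4 and 25.3 on control replicates 1, 2 and 3. It was raised on OX-labelled replicate 3 alone, so the label is kept in the name of the group throughout, and whether the probe would detect the transgene is not known here. Second, that same array stood apart. Across 18929 probes its Pearson's r with the others was 0.810 to 0.854, against 0.883 to 0.974 among the other 5 arrays, and it held 2103 outlier spots, against 15 to 607 on the others. It was also alone in its scan and, by a slide record that is uncertain, on its slide. These cannot be told apart from its leaf. Its scan (scan 3) held no control, so within-scan values rest on the other 5 arrays. The difference of each of the 8 genes is therefore given with and without it.

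None of the 8 genes (0) passed a limma adjusted p under 0.05, and 1 had an unadjusted p under 0.05. Every one of the 8 probes exceeded background clearly on all 6 arrays, and no spot of them (0) was saturated. Across all probes tested, 0.08% passed the adjusted threshold and 15.1% had an unadjusted p under 0.05, so the share of these genes at the looser threshold is near the background. Of the 8 differences, 4 were positive and 4 negative. Their median was 0.0059, against 0.0038 over all probes tested, and their median size without regard to sign was 0.54, against 0.39. The gene of largest difference was GIN1, lower on every OX-labelled array, and HT1 and HT5 had the largest positive differences.

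**Figure D1:**
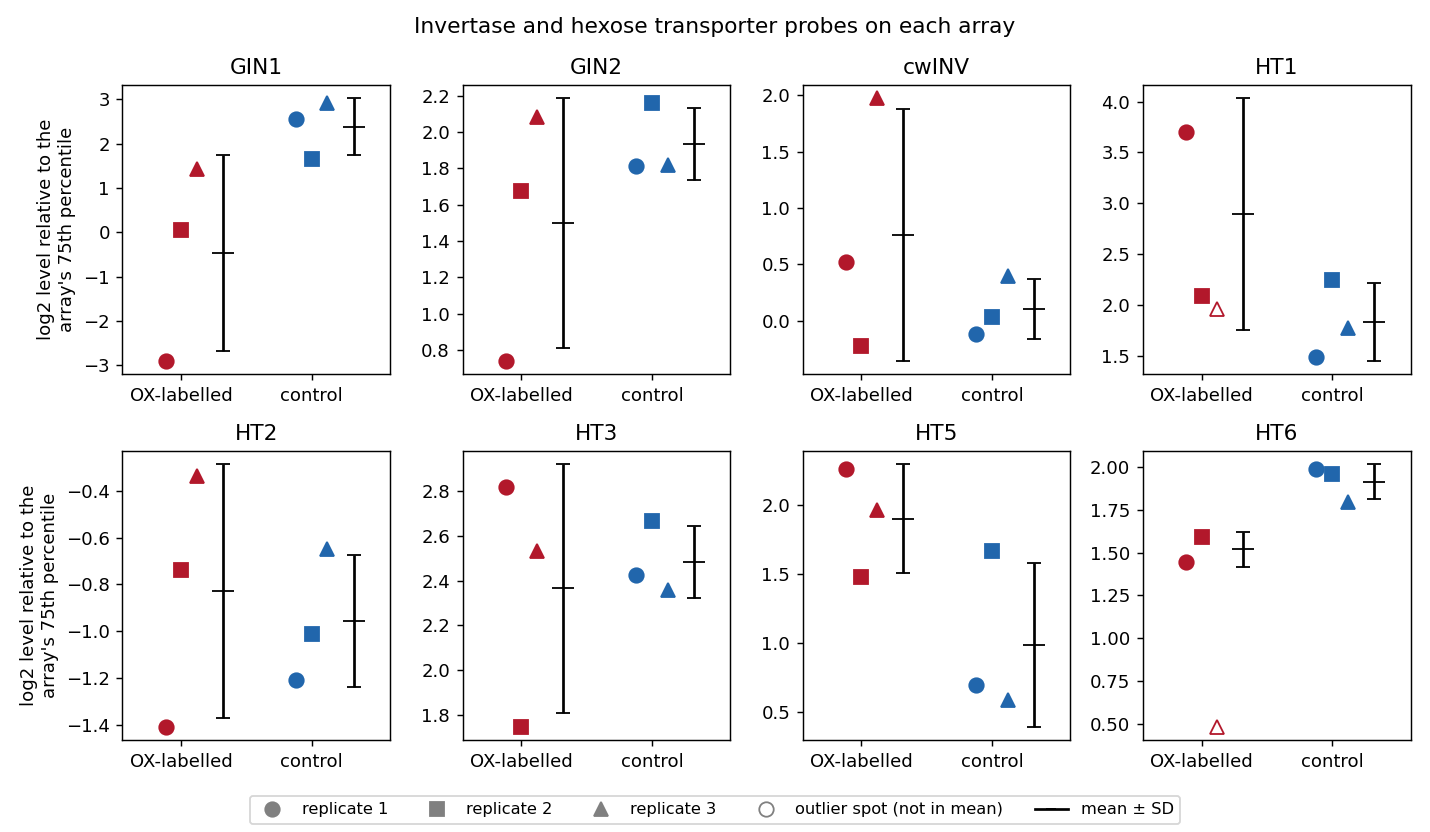
Each panel plots 1 gene, with the log2 level relative to the array's 75th percentile on the y axis (scales differ between panels). Symbols are arrays, OX-labelled left of control, bars are mean ± SD, and open symbols are the 2 outlier spots left out of the mean. GIN1 lies between -2.90 and 1.44 on the OX-labelled arrays and between 1.67 and 2.92 on the control arrays.

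GIN1 encodes a vacuolar invertase. Its level was -2.90, 0.051 and 1.44 on OX-labelled replicates 1, 2 and 3, against 2.57, 1.67 and 2.92 on control replicates 1, 2 and 3. In intensity, OX-labelled replicate 1 read 89.6, where the controls read 2598 to 7829. All OX-labelled arrays lay below all controls. The spread within the OX-labelled group was wide, from a level close to the lowest control (replicate 3) to one 38.9-fold below the control mean (replicate 1). The means were -0.47 ± 2.21 in OX-labelled and 2.39 ± 0.65 in control leaves (SD, n = 3 each). The limma difference was -2.86 (SE 1.09, 95% confidence interval -5.50 to -0.21), with an unadjusted p of 0.0383 and an adjusted p of 0.301. It is thus not called, although the means are 7.24-fold apart. Among the 6 genes with 6 usable spots, 1 was without overlap between groups (GIN1), where 24.2% of all such probes were, 13.7% with OX-labelled leaves lower. In whole leaves, fewer cells that make a transcript and less of it per cell cannot be told apart.

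How far GIN1 lay below the controls rested on OX-labelled replicate 1. Without that array the difference was -1.64, and without OX-labelled replicate 3 it was -3.81 (limma adjusted p 0.353 and 0.123). Within scan 1, which held replicate 1 of each group, the difference was -5.47, and within scan 2, with 1 OX-labelled array against 2 controls, it was -2.24. The deposited processed table gave -3.49 with a limma adjusted p of 0.0426. A pass was common there: over all probes 3114 passed, against 19 with the scanner files. In that table the column of OX-labelled replicate 3 lay between those of replicates 1 and 2 at 100% of probes and did not follow its own scanner file, and without that column the adjusted p was 0.118.

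The other vacuolar invertase, GIN2, varied less. Its level was 0.74, 1.67 and 2.08 on OX-labelled replicates 1, 2 and 3, against 1.81, 2.16 and 1.82 on the control arrays. OX-labelled replicates 1 and 2 lay below every control, and replicate 3 lay within the control range. The mean of GIN2 was 1.50 ± 0.69 in OX-labelled and 1.93 ± 0.20 in control leaves (SD, n = 3 each). By limma they differed by -0.43 (SE 0.38, adjusted p 0.628), less than the spread in OX-labelled leaves. Without OX-labelled replicate 3 the difference was -0.73 (limma adjusted p 0.324), with a 95% confidence interval of -1.57 to 0.12, and without replicate 1 it was -0.054. The 2 vacuolar invertases thus shared their lowest array, OX-labelled replicate 1, with GIN1 38.9-fold and GIN2 2.29-fold below their control means there. This was not particular to them: HT2 was lowest on that array too, as was HT6 among its usable spots.

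The cell wall invertase cwINV splits sucrose outside the plasma membrane. Its level was 0.52, -0.22 and 1.97 on OX-labelled replicates 1, 2 and 3, against -0.12, 0.033 and 0.40 on the control arrays. The groups overlapped: OX-labelled replicate 2 was the lowest of the 6 arrays and replicate 3 the highest, 3.66-fold above the control mean. For cwINV the mean was 0.76 ± 1.12 in OX-labelled and 0.10 ± 0.27 in control leaves (SD, n = 3 each). The limma difference of 0.66 (SE 0.56, adjusted p 0.621) was smaller than the spread among the OX-labelled arrays. Without OX-labelled replicate 3 it was 0.047 (95% confidence interval -0.74 to 0.83), so the positive value rested on that array. The scans went opposite ways for cwINV, with 0.64 in scan 1 and -0.44 in scan 2.

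Among the plasma membrane transporters, HT1 and HT5 were 2.09-fold and 1.89-fold higher in OX-labelled leaves by their means, and neither passed the test. HT1, a grapevine hexose transporter known from the phloem region of leaves and berries, had a level of 3.70 and 2.09 on OX-labelled replicates 1 and 2, against 1.48, 2.24 and 1.77 on control replicates 1, 2 and 3. On OX-labelled replicate 3 Feature Extraction marked the HT1 spot as an outlier, so the fit leaves it out. The value of that spot was 1.96. Only OX-labelled replicate 1 exceeded the controls. The mean of HT1 was 2.89 ± 1.14 (SD, n = 2) in OX-labelled and 1.83 ± 0.38 (SD, n = 3) in control leaves, which differ by 1.06 in the limma fit (SE 0.56, adjusted p 0.444). It was 2.22 in scan 1 and 0.078 in scan 2, and with the outlier spot kept it was 0.75 (limma adjusted p 0.553). Leaving out OX-labelled replicate 3 as a whole keeps 1.06, since its spot was not in the fit.

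HT5 is a grapevine hexose transporter known for higher expression in leaves under pathogen attack. Its level was 2.26, 1.48 and 1.97 on OX-labelled replicates 1, 2 and 3, against 0.70, 1.67 and 0.59 on control replicates 1, 2 and 3. OX-labelled replicates 1 and 3 were above every control, and replicate 2 was below control replicate 2. HT5 averaged 1.90 ± 0.40 in OX-labelled and 0.99 ± 0.59 in control leaves (SD, n = 3 each). The limma difference was 0.92 (SE 0.38, unadjusted p 0.0508, adjusted p 0.335), with a 95% confidence interval of -0.0045 to 1.84. With 1 array left out, the difference of HT5 lay between 0.72 and 1.26, and it was 0.88 without OX-labelled replicate 3. Within scans it was 1.56 and 0.35.

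HT2 and HT3 had small differences. HT2, a hexose transporter also measured in ripening berries, had a level of -1.41, -0.74 and -0.33 on OX-labelled replicates 1, 2 and 3, against -1.21, -1.01 and -0.65 on the control arrays. One OX-labelled array lay below the controls, 1 within them and 1 above. The limma difference of HT2 was 0.13 (SE 0.34, adjusted p 0.885, 95% confidence interval -0.70 to 0.95), and it turned to -0.12 without OX-labelled replicate 3. HT3, another hexose transporter, had a level of 2.82, 1.75 and 2.53 on OX-labelled replicates 1, 2 and 3, against 2.43, 2.66 and 2.36 on the control arrays. Here too the OX-labelled arrays lay on both sides of the control range. The limma difference of HT3 was -0.12 (SE 0.33, adjusted p 0.893, 95% confidence interval -0.91 to 0.67), and it turned to 0.19 without OX-labelled replicate 2. Without OX-labelled replicate 3 the difference of HT3 was -0.20. The intervals thus reach 0.95 for HT2 and -0.91 for HT3, so that differences of that size lie within what these arrays allow.

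HT6, which moves hexoses across the vacuolar membrane, had the smallest SD among the control arrays of the 8 genes. Its level was 1.45 and 1.59 on OX-labelled replicates 1 and 2, against 1.99, 1.96 and 1.80 on control replicates 1, 2 and 3. As with HT1, the spot on OX-labelled replicate 3 was marked as an outlier and is not in the fit, and its value of 0.48 was lower still. With that spot counted, all OX-labelled values of HT6 were below all control values, and the usable ones among them are 2. Of all probes tested with 6 usable spots, 13.7% had all OX-labelled arrays below all controls. Without OX-labelled replicate 3 this share was 19.5%. Its mean was 1.52 ± 0.10 (SD, n = 2) in OX-labelled and 1.91 ± 0.10 (SD, n = 3) in control leaves, which differ by -0.40 in the limma fit (SE 0.24, adjusted p 0.495). With the outlier spot kept the difference was -0.74 (limma adjusted p 0.385), and without the whole array it stays at -0.40. HT6 was lower in OX-labelled leaves in scan 1 (-0.54) and in scan 2 (-0.29).

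**Figure D2:**
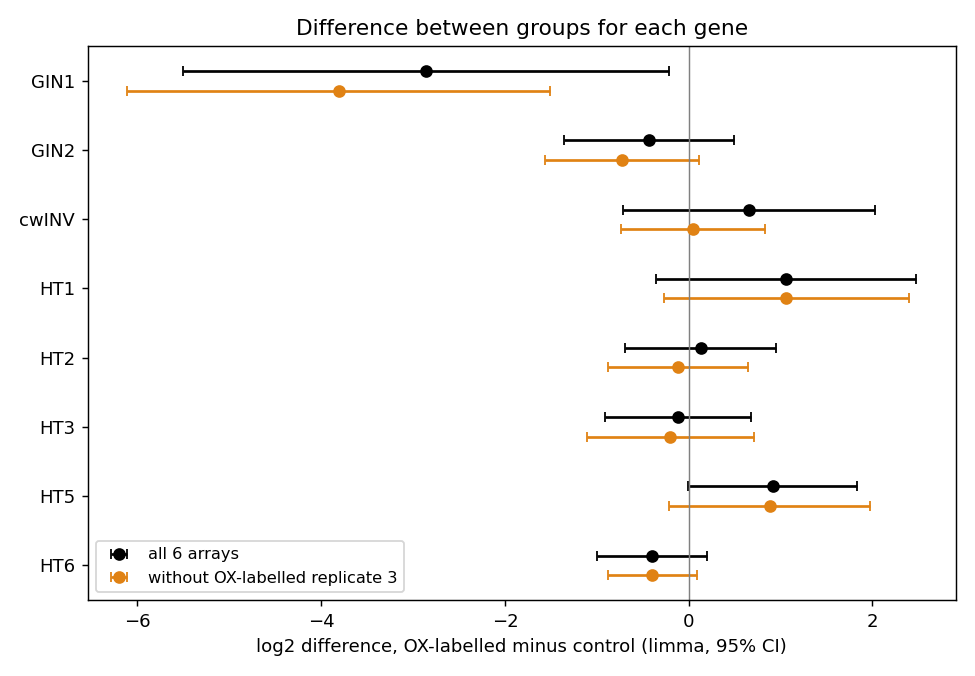
The x axis gives the limma log2 difference, OX-labelled minus control, with its 95% confidence interval, for all 6 arrays (black) and without OX-labelled replicate 3 (orange). Intervals of GIN1 exclude 0 before adjustment in both fits (-2.86 and -3.81), and those of the other 7 genes include it.

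Without OX-labelled replicate 3, none of the 8 genes (0) passed the limma adjusted threshold, where 0.415% of all probes did, and 1 had an unadjusted p under 0.05 (GIN1, unadjusted p 0.0075), where 19.1% did. In those 5 arrays the groups did not overlap at GIN1, GIN2 and HT6, all lower in OX-labelled leaves. That is 3 of the 8 genes, where 39.3% of all probes had no overlap and 19.5% had none with OX-labelled leaves lower. The share without overlap is thus near the background, and the share in the lower direction was not tested. Scan 1 and scan 2 gave differences of the same sign for 5 of the 8 genes: GIN1, GIN2 and HT6 negative, and HT1 and HT5 positive. That is 5 of 8, where 66.5% of 23260 probes had the same sign in both scans.

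Which genes lay outside the control range differed from one OX-labelled array to the next. On OX-labelled replicate 1 all 8 genes lay outside the control range, 4 above (cwINV, HT1, HT3, HT5) and 4 below (GIN1, GIN2, HT2, HT6), where 72.2% of all probes tested lay outside on that array. The median distance of the 8 genes from their control means was 0.83 there, against 0.45 over all probes tested. On OX-labelled replicate 2, 5 genes lay below the control range (GIN1, GIN2, cwINV, HT3, HT6) and 0 above, where 66.3% of all probes lay outside, and the median distance was 0.32, against 0.37 over all probes. On OX-labelled replicate 3, 3 genes lay above the range (cwINV, HT2, HT5) and 2 below (GIN1, HT6), where 80.6% of all probes lay outside. The median distance there was 0.79, against 0.70 over all probes, with the outlier spots of HT1 and HT6 counted. GIN1 and, with its outlier spot counted, HT6 were below the control range on all OX-labelled arrays, and no gene was above it on all of them. Of all probes tested with 6 usable spots, 13.7% had every OX-labelled array below every control.

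**Figure D3:**
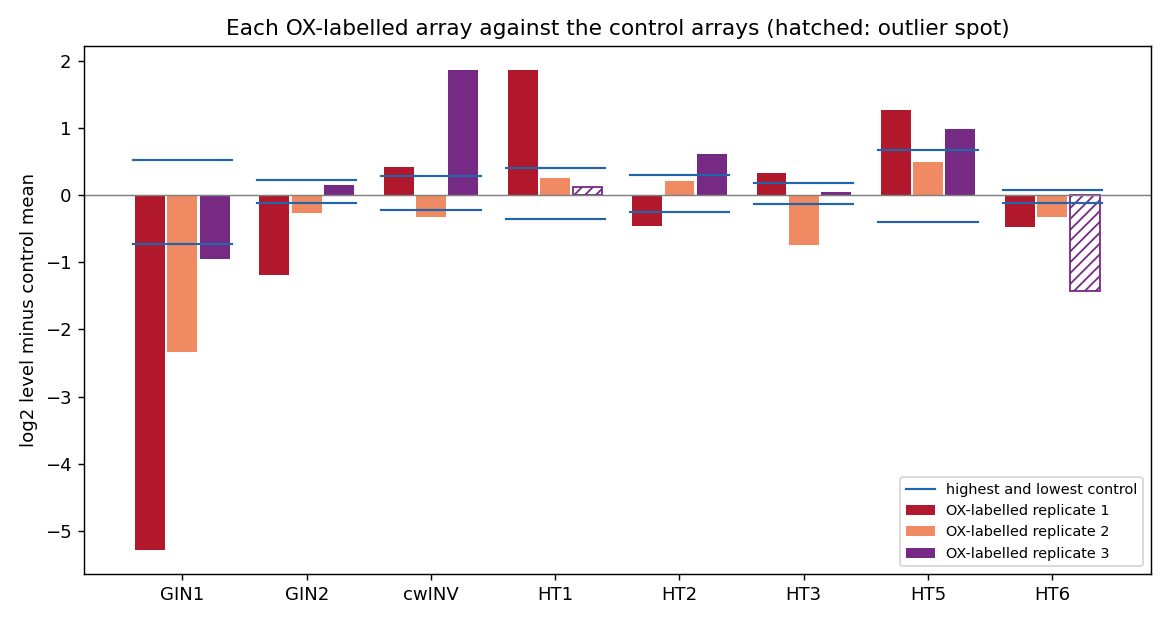
Bars give the log2 level of each OX-labelled array minus the control mean, for each gene, and blue lines mark the highest and lowest control array. Hatched bars are outlier spots. The deepest bar is GIN1 on replicate 1 at -5.28, and the bar of cwINV is highest on replicate 3, at 1.87.

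Other genes of the pathway were looked at as a list of 17 loci, taken from general knowledge of grapevine sugar metabolism and not annotated in the files, so they are given by counts. The list held sucrose transporters, sucrose synthases, SWEET sugar exporters, further tonoplast monosaccharide transporters, hexokinases and fructokinases. Of 14 tested, none (0) passed the limma adjusted threshold, in either direction. At an unadjusted p under 0.05 there were 6, 1 higher and 5 lower in OX-labelled leaves. Of all probes tested 15.1% were, 1389 higher and 2188 lower among 23752. The median difference of the 14 was -0.35, against 0.0038 over all probes tested. Without OX-labelled replicate 3, 16 were tested, of which 0 passed the limma adjusted threshold, where 0.415% of all probes did. At an unadjusted p under 0.05, 4 were higher and 4 lower. Of all probes 19.1% were, 1937 higher and 2709 lower among 24350. The median difference of the 16 was -0.13, against 0.046 over all probes. With all 6 arrays, the 5 loci of sugar phosphorylation (hexokinase and fructokinase) ranged from -2.07 to -0.17, and without OX-labelled replicate 3 from -1.89 to -0.17. The 3 of sucrose transport ranged from 0.0085 to 1.0, and from 0.32 to 1.08 without that array. The 1 SWEET locus tested was at 2.24, the largest positive difference of the 14, and the 2 tested without that array were at 1.26 and 3.05. The 2 of tonoplast transport were at -2.91 and -0.21, and at -2.47 and -0.088 without that array. Of the 3 sucrose synthase loci tested, 2 had negative differences and 1 a positive one, between -0.92 and 0.59, and the 4 tested without that array lay between -0.75 and 0.63. A locus tested only without that array was well above background on OX-labelled replicates 1 and 2 but not on every control. The direction of its difference is thus tied to the filter, and the counts and median of the 16 draw on such loci.

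For the 2 genes of largest difference, GIN1 and HT1, the loci whose levels ran most alike over the 6 arrays were sought among 17732 loci. For GIN1 these were VIT_17s0000g06650 and VIT_11s0016g05630, each with a Pearson's r of 0.994 and a Spearman's rho of 1, and without OX-labelled replicate 3 their r was 0.995 and 0.994. In all, 148 loci had an r above 0.95 with GIN1. For HT1 they were VIT_08s0007g02870 (r 0.989, rho 0.943) and VIT_18s0166g00310 (r 0.986, rho 0.829), with an r of 0.989 and 0.998 without OX-labelled replicate 3, and 33 loci had an r above 0.95. These are descriptions over 6 arrays that hold a far value on OX-labelled replicate 1, and HT1 entered with its outlier spot.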

How the data were processed

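Spot intensity comes from 1-colour (Cy3) arrays and, per the file headers, from Agilent Feature Extraction 10.5.1.1, which corrects background and spatial trend inside an array without scaling arrays to each other. The same deposited files mark saturated, outlier and dim spots with other values of 0 or 1. The log2 processed intensity was set relative to the array's 75th percentile (668 to 1234 in intensity), with outlier spots as missing. A probe entered the test with at least 2 usable spots per group, if 1 group or both had it well above background on each of their arrays (23752 probes). The test was limma 3.58.1 (lmFit, eBayes, R 4.3.3), with Benjamini-Hochberg adjustment over all probes tested. It was also run on simulated data with independent errors and no array that stands apart, so that run does not cover this feature of the arrays. How the deposited processed intensity table was made is not given in the sources used here: 5 of its 6 columns were multiples of their scanner file within 0.1% at 99.8% to 99.9% of probes, and that of OX-labelled replicate 3 was so at 0.165%. Its column medians were 490 to 506. Scan and slide were read from the headers. Scan 1 held replicate 1 of both groups, scan 2 held control replicates 2 and 3 with OX-labelled replicate 2, and OX-labelled replicate 3 was alone in scan 3 and on slide 2. The slide record is uncertain, since 2 arrays share 1 position on it.

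The genes, lists and alternatives were chosen with earlier results of these data known. Named genes are the 8 loci, CARPO, and the 2 loci most like each of the 2 genes of largest difference. Tissue markers were not checked, because locus names are not paired with gene names. Deviations from the group mean correlated at 0.221, 0.0229 and -0.0234 between arrays of number 1, 2 and 3, against -0.297 to 0.275 for pairs of different number. The numbers were not taken as pairs, although 3 arrays per group can hardly settle this. A fit with the replicate block is given below. The number of arrays limits the precision.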

Additional observations from a re-analysis of the deposited data

How the results depend on the processing

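Alternatives were normexp background correction (offset 50, on the median spot signal), quantile or median scaling, a 75th percentile over clearly detected probes, other filters on dim probes, outlier spots kept, trended and robust variance, array weights, the processed table with or without the column of OX-labelled replicate 3, replicate, slide or scan as a block, and each array left out in turn. Under all of them 0 of the 8 genes passed the limma threshold, except in the processed table, where 1 did (GIN1). Without OX-labelled replicate 1 or 2, HT1 and HT6 had too few usable spots to be tested. Of 156 differences recomputed for the 8 genes, 148 kept their direction and side of the threshold and 7 reversed. Many could not change direction: the filters on dim probes and the trended variance leave each difference as it is. The same holds, for genes with 6 usable spots, when outlier spots are kept or replicate is a block. HT2, at 0.13, reversed with array weights (-0.039), the processed table (-0.074), that table without the column of OX-labelled replicate 3 (-0.12), slide (-0.12) or scan (-0.034) as a block and without OX-labelled replicate 3 (-0.12), and ran from -0.12 to 0.42 with 1 array left out. HT3, at -0.12, reversed without OX-labelled replicate 2 (0.19), and ran from -0.34 to 0.19. The CARPO probe, at 0.47, reversed under array weights (-0.96), slide (-1.0) or scan (-0.88) as a block, and without control replicate 1 (-0.033) or OX-labelled replicate 3 (-1.0), and ran from -1.0 to 1.29. With slide or scan as a block, OX-labelled replicate 3, alone in both as recorded, adds nothing to the difference. Array weights gave it 0.18, against 0.77 to 3.81 for the other arrays. Those 3 settings thus repeat, in full or in part, the removal of that array. Why it stood apart was not tested.

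Over all probes, 19 passed. The count was 0 with normexp (1536 at an unadjusted p under 0.05), without a filter on dim probes (3404) and with the replicate block (3096), 7 with the filter on all 6 arrays, 123 with array weights, 3114 in the processed table, 94 in that table without the column of OX-labelled replicate 3, 69 with slide as a block and 45 with scan as a block. Leaving out 1 array gave 0 to 116. Quantile scaling gave 4 higher against 9 lower and median scaling 5 against 10, where the 75th percentile gave 4 against 15. With the replicate block 0 of the 8 genes passed (1 at an unadjusted p under 0.05). GIN1, with 6 usable spots, keeps -2.86 there by design, and only its SE could change (0.93, against 1.09). Normexp gave a median log2 difference of 0.13 over all probes.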
